A study of Mus musculus with 10 samples.

Results

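The comparison set the magnocellular neurons of the mouse paraventricular hypothalamus (PVH) against its parvocellular neurons. Magnocellular neurons were the cells that the authors' table places in clusters 1, 2, 3 and 4, and parvocellular neurons were the cells of clusters 7, 8, 9, 10, 12, 13, 14 and 15. Each side held 332 of the 664 PVH cells, out of 706 cells in the table, and the other 42 cells belonged to clusters outside the PVH. All cells came from male offspring of Agrp-IRES-Cre mice crossed with Ai9 mice, over 7 weeks old and of a single condition, in which Cre made under the Agrp gene switches on tdTomato. The labels describe the picked cells as tdTomato-positive, whereas the methods use tdTomato only in the axons of AGRP neurons, to find the border of the PVH. Cells were picked by hand after pronase digestion in blockers of neuronal activity (TTX, APV and DNQX), and picking by hand can favour large cells. They were placed on 10 plates, 4 with the prefix Q, 2 with AL and 4 with JM, which the authors' table gives as a batch. The plate was the replicate, both sides were present on every plate, and the sources do not say which animals fed which plate.

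Magnocellular neurons are large cells that send axons to the posterior pituitary and release oxytocin or vasopressin into the blood. Parvocellular neurons are smaller and include cells that control the anterior pituitary through releasing and inhibiting hormones, and cells that project within the brain. A hormone precursor enters the endoplasmic reticulum (ER) through the translocon, is folded by chaperones, passes the Golgi and is cut and amidated in dense-core vesicles, so genes of each of these steps were grouped and are described in that order.

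The 4 promoters below belong to genes named in the comparison: both hormones of the magnocellular neurons, an ER chaperone, and a vesicle protein that separated the sides in the opposite direction. Each runs from 250 bases before to 50 bases after the annotated start, 5′ to 3′ on the gene's own strand, from RefSeq on build GRCm38.p6. In Oxt (chr2:130575919-130576218, plus strand) the capitals mark both copies of the nuclear receptor half-site AGGTCA, the first of which starts 185 bases before the start and the other of which lies on the opposite strand. In Avp (chr2:130582539-130582838, minus strand) they mark the E-box CACGTG at 139 bases before the start. In Hspa5 (chr2:34771840-34772139, plus strand) they mark the ER stress element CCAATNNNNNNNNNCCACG at 65 bases before the start. In Scg2 (chr1:79439977-79440276, minus strand) they mark the cAMP response element TGACGTCA at 68 bases before the start.
Oxt: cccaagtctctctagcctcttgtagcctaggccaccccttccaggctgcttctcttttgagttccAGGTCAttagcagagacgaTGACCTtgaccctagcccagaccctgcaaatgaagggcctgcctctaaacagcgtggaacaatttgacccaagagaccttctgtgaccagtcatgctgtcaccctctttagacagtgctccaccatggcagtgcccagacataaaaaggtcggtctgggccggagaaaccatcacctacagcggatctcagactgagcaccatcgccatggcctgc
Avp: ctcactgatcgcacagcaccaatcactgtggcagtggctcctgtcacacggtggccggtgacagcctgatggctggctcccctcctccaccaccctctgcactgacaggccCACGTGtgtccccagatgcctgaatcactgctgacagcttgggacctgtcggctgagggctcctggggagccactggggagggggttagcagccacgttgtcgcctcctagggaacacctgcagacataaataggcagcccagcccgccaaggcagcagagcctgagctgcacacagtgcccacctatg
Hspa5: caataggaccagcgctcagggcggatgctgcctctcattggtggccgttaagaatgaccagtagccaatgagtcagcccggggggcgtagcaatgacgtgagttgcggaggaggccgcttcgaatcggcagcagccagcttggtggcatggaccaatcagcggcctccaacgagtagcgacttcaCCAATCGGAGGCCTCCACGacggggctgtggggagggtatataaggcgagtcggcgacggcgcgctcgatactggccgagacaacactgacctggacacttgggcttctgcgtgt
Scg2: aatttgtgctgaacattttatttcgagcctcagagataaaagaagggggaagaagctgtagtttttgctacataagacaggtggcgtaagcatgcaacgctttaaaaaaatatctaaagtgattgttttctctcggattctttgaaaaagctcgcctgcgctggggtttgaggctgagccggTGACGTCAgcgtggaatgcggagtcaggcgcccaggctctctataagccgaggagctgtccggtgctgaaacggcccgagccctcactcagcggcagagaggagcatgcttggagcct
Both strands were searched. Of 27025 mouse genes with a promoter window, 18.1% held AGGTCA, 8.09% held CACGTG, 2.03% held TGACGTCA and 0.137% held the ER stress element. TGACGTCA contains the half-site TGACG, which 23% of the windows held.

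The depth of the PVH cells ranged from 50646 to 1078101 UMIs (unique molecular identifiers, each counting 1 captured mRNA molecule), with a median of 130107. Each plate contributed 16 to 50 magnocellular and 19 to 49 parvocellular cells, whose summed counts ranged from 1416468 to 17019943 and from 1565386 to 9919352 UMIs. Cells were named by plate and well. The clusters were not spread evenly over the plates. Cluster 1 held 107 cells on Q plates and 114 on AL or JM plates, but cluster 2 held 48 and 5, cluster 3 held 1 and 35, and cluster 4 held 0 and 22. On the parvocellular side cluster 8 held 40 and 2, and clusters 12 and 13 held 35 and 16 cells, all on AL or JM plates. Each side's sum therefore mixes its clusters in the proportions of that plate, and fewer cells of a type and less RNA per cell cannot be told apart in it.

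The names of the sides were set beside the nonapeptide hormone genes Oxt and Avp, which encode the precursors of oxytocin and vasopressin. Together they made up 3.61 to 9.12% of all magnocellular UMIs on the 10 plates (median 6.57%) and 0.0618 to 0.643% of parvocellular UMIs (median 0.219%). In 329 of 332 magnocellular cells the pair exceeded 10000 CPM (UMIs of the gene for each 1e6 UMIs of the cell or sum), against 27 of 332 parvocellular and 0 of 42 non-PVH cells. At least 1 Oxt UMI was found in 97.6% of parvocellular cells, but also in 95.2% of the non-PVH cells, at median depths of 108656 and 107236 UMIs per cell, so detection alone marks no cell here. The median Oxt level was 154 CPM in parvocellular cells outside cluster 12 and 120 CPM in non-PVH cells. Mean Oxt was 66960 CPM in cluster 1, against 468 CPM in cluster 2, 5479 CPM in cluster 3 and 3476 CPM in cluster 4. Mean Avp was 2253 CPM in cluster 1, whereas it reached 69360, 46020 and 50760 CPM in clusters 2, 3 and 4. Cluster 1 was thus the oxytocin cluster and clusters 2, 3 and 4 the vasopressin clusters. On the parvocellular side, Oxt reached 12960 CPM in cluster 12 and 98 to 2026 CPM elsewhere, and Avp ranged from 56.5 to 2097 CPM. By these genes the label describes 7 of the 8 parvocellular clusters, while cluster 12 carries oxytocin mRNA. The clusters were drawn from counts that include Oxt and Avp, so these levels describe the names and do not test them. Cell size and axon targets were not measured here, so whether a cell with these mRNAs is magnocellular was not tested.

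Magnocellular cells yielded more RNA per cell. The plate median of total UMIs averaged 203624 ± 135655 (SD, n = 10 plates) in magnocellular and 121404 ± 56087 in parvocellular cells, with the magnocellular value higher on 10 of 10 plates. The geometric mean of the plate ratios was 1.50, which differs from the ratio of these means. Ratios over plates given below for the measures per cell are also geometric means. The exact sign-flip permutation test paired by plate (two-sided) gave p = 0.00195, the smallest it can give with 10 plates, and 0.00977 after Benjamini-Hochberg adjustment over the 5 measures tested. A known amount of spike-in RNA (ERCC) in each well gives another scale for RNA per cell. Magnocellular cells had 13.7 ± 4.24 gene UMIs per ERCC UMI against 9.85 ± 5.51, with a geometric mean of the plate ratios of 1.52. The ratio was above 1 on 9 of 10 plates (exact permutation p = 0.00391, adjusted 0.00977). The exception was plate AL6, with a ratio of 0.977. With Oxt and Avp UMIs left out, an alternative chosen after seeing the data, the log2 differences were 0.49 for total UMIs and 0.50 per ERCC UMI, against 0.58 and 0.60 with them.

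Genes detected per cell numbered 5656 ± 425 in magnocellular and 4853 ± 607 in parvocellular cells, higher on 8 of 10 plates (exact permutation p = 0.00781, adjusted 0.0130). After every cell was thinned to 63413 UMIs, which left out 19 magnocellular and 48 parvocellular cells, the numbers were 4973 ± 491 and 4620 ± 851, higher on 7 of 10 plates (exact permutation p = 0.0410, adjusted 0.0410). This last call was lost when any of 7 plates was left out. The share of UMIs from the mitochondrial genome, a common sign of cell quality, was 3.09 ± 0.332% and 3.40 ± 0.466%, lower in magnocellular cells on 8 of 10 plates (exact permutation p = 0.0215, adjusted 0.0269). That call was lost without plate Q5, Q6 or Q8, with an adjusted p of 0.0537 in each case.

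The contrast in RNA per cell differed between Q plates and the pooled AL and JM plates. On Q plates magnocellular cells had 1.91 times the UMIs of parvocellular cells (4 of 4 plates), and on AL and JM plates 1.27 times (6 of 6 plates). An exact permutation test of this difference over plates (4 against 6) gave p = 0.0286, adjusted 0.0357. Per ERCC UMI the ratios were 1.97 (4 of 4 plates) and 1.28 (5 of 6 plates), with exact permutation p = 0.00952 and adjusted p = 0.0357. For genes detected the ratios were 1.32 and 1.08, and at equal depth 1.20 and 1.02, with an adjusted p of 0.0357 for each. Plate JM8 lay within the range of the Q plates in total UMIs (log2 difference 0.89, Q plates 0.84 to 1.18). It also lay within their range in genes detected and in genes at equal depth. Per ERCC UMI it lay below them (0.66, Q plates 0.71 to 1.27). The mitochondrial share differed by −0.52 percentage points on Q and −0.16 on AL and JM plates (adjusted p = 0.0952). Within Q plates alone no p below 0.125 is possible, and within AL and JM plates none below 0.03125. Since clusters 2 and 8 lay mostly on Q plates and clusters 3, 4, 12 and 13 on AL and JM plates, the batch and the cluster makeup cannot be told apart.

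**Figure D1:**
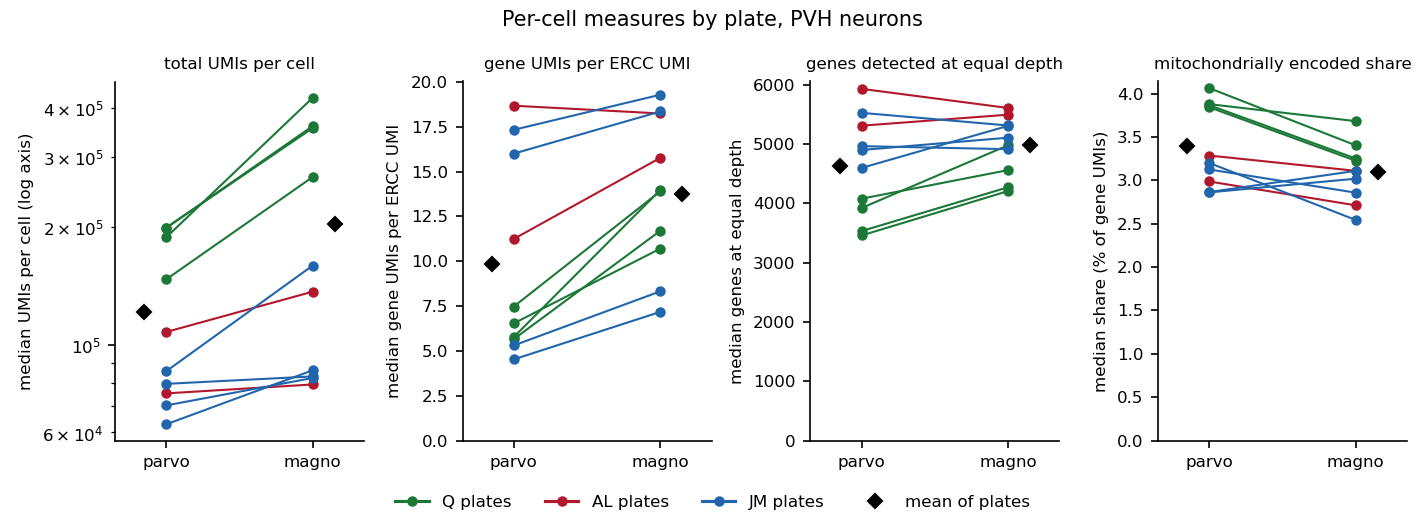
Medians over cells of total UMIs (log axis), gene UMIs per ERCC UMI, genes detected at equal depth and mitochondrial share (% of gene UMIs), 1 point per plate and side, coloured by batch, with a line joining both sides of a plate and diamonds at the mean of plates. Total UMIs lie higher on the magnocellular side on 10 of 10 plates, gene UMIs per ERCC UMI on 9 and genes at equal depth on 7, and the mitochondrial share lies lower on 8.

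The clusters within each side were not alike in RNA content. Relative to the parvocellular cells of other clusters on the same plate, gene UMIs per ERCC UMI differed by 0.79 ± 0.45 (log2, SD) in cluster 1, higher on 9 of 10 plates. The same difference was 0.40 in cluster 2 (4 of 5 plates), 0.14 in cluster 3 (4 of 5 plates) and 0.21 in cluster 4 (3 of 5 plates). Among parvocellular clusters, cluster 7 stood at 0.37 (higher on 6 of 8 plates) and cluster 12 at 0.26 (5 of 6 plates), while cluster 10 stood at −0.49 ± 0.24 (0 of 7 plates). The values of clusters 7 and 12 thus lay above those of clusters 3 and 4. The mitochondrial share was −0.02 percentage points from the parvocellular cells in cluster 1 and −0.62, −0.80 ± 0.14 and −0.27 points from them in clusters 2, 3 and 4. Within the magnocellular side the lower values thus belonged to the vasopressin clusters. A low share was not particular to them, since parvocellular cluster 8 stood at −0.31 points (higher on 0 of 4 plates). These values by cluster are a description and were not tested.

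Across genes, counts were summed per plate and side and tested with edgeR, with the plate as a block and an adjusted p under 0.05 as the threshold. Of 11805 genes tested, 889 (7.53%) were higher and 769 (6.51%) lower in magnocellular neurons. The clusters were drawn from the counts of these same genes, so a call says that a difference was steady over plates and is not independent evidence that the groups exist. The direction was the same on all 10 plates for 331 of the higher and 485 of the lower genes, and this was not counted over all tested genes. Plate directions and overlaps were read from CPM, without the scaling between sums that the calls used. Oxt and Avp take 3.61 to 9.12% of magnocellular UMIs, which lowers the magnocellular CPM of every other gene. The part of this in the larger counts of lower genes was not tested. Changes of at least 2-fold were found for 326 higher and 382 lower genes, and of at least 4-fold for 132 and 206. The plate values of both sides did not overlap for 175 genes (1.48% of those tested), 59 of them called higher and 114 called lower. A stricter split asked that each of the 4 magnocellular clusters have a higher mean than each of the 8 parvocellular clusters, which 72 genes met (0.61%), 67 of them called. The reverse was met by 111 genes (0.94%), 85 of them called. The median log2 difference over all tested genes was 0.02, and it stayed between 0.01 and 0.02 under the other scalings.

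**Figure D2:**
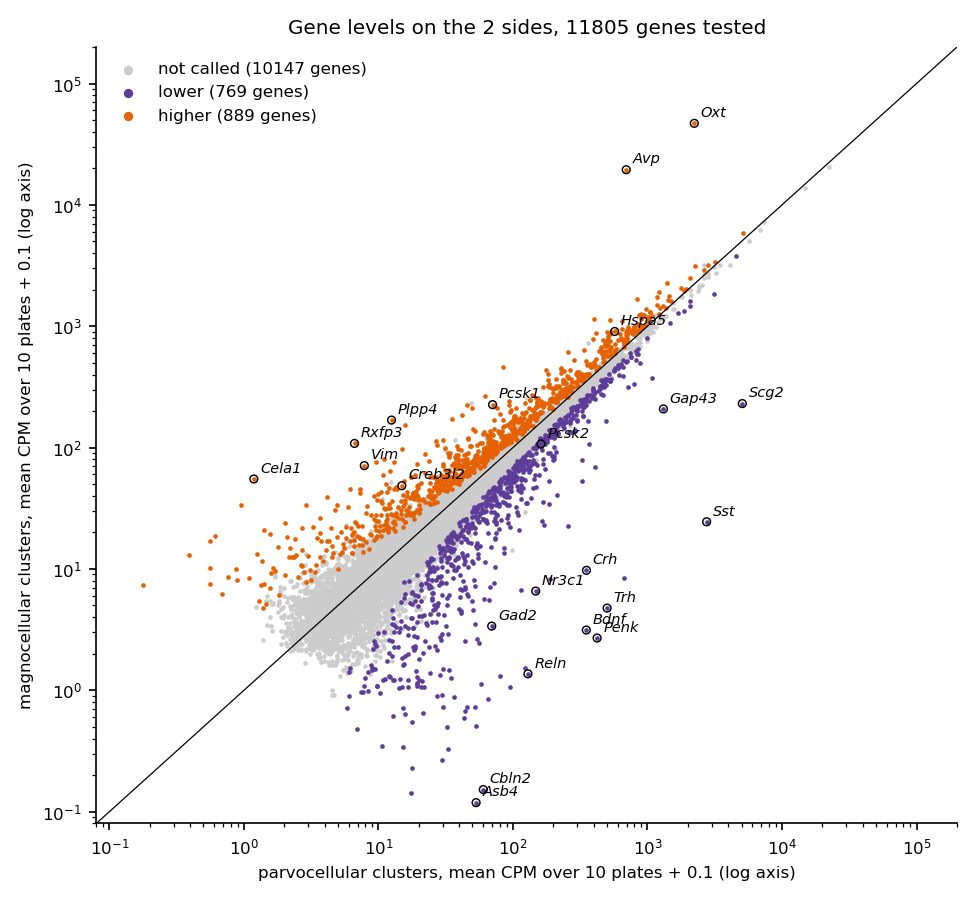
Mean level over the 10 plates of each tested gene in parvocellular (horizontal) and magnocellular neurons (vertical), in CPM plus 0.1 on log axes, with the 889 higher and 769 lower genes coloured and named genes labelled. Oxt and Avp sit far above the diagonal at the highest magnocellular levels, and Scg2, Sst, Crh and Trh sit below it.

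A side's call can come from only some of its clusters. Of the 889 higher genes, 649 were also called with cluster 1 alone against the parvocellular cells and 392 with clusters 2 to 4 alone. In both settings 265 were called, and 93 had opposite signs in them. Of the 769 lower genes, 615 and 384 were called, 295 in both, and 12 had opposite signs. Oxt is the plainest case, with a log2 difference of 5.52 in cluster 1 and −0.67 in clusters 2 to 4, and Avp mirrors it with −0.34 and 6.84. Differences between these parts were not tested, and a call in 1 part alone does not show that the parts differ.

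Oxt had a lowest, median and highest plate level of 27306, 42717 and 77056 CPM in magnocellular neurons, and 182, 1855 and 4633 CPM in parvocellular neurons. Avp had 8048, 16332 and 48491 CPM against 138, 463 and 2143 CPM. For neither gene did the sides overlap. The log2 difference was 4.99 ± 0.71 (SE, adjusted p = 0.00115) for Oxt and 5.23 ± 0.56 (adjusted p = 0.000188) for Avp. On Q plates alone these were 6.97 and 6.11, and on AL and JM plates 3.80 and 4.60. AL and JM plates are those that hold cluster 12.

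The hormones with which parvocellular neurons act on the anterior pituitary lay on the other side. All 4 members of that list were lower in magnocellular neurons, beside 6.51% of all genes, with a median log2 difference of −6.89. Crh, which drives the release of adrenocorticotropin, was at 0, 1.60 and 76.9 CPM (lowest, median, highest) in magnocellular and 147, 291 and 603 CPM in parvocellular neurons, with no overlap and a log2 difference of −6.96 ± 1.01 (adjusted p = 0.00120). Trh, which drives the release of thyrotropin, was at 0, 1.14 and 29.3 CPM against 15.2, 386 and 1317 CPM (log2 difference −7.36 ± 1.27, adjusted p = 0.00372), lower on 9 of 10 plates. Sst, encoding somatostatin, which restrains growth hormone, was at 0, 14.8 and 69.9 CPM against 0, 1390 and 6983 CPM (−6.82 ± 0.61, adjusted p = 5.42e-05). Its sides overlapped because plate AL6 had no Sst on the parvocellular side. Leaving out 1 plate kept these calls and widened 2 of the differences by over 1.5-fold, Crh to −7.69 without JM5 and Trh to −7.95 without AL6 or −8.15 without JM6. Each of these peptides belonged to few clusters, Crh to clusters 10, 14 and 13 (means 1743, 522 and 465 CPM), Trh to cluster 9 (2628 CPM) and cluster 15 (1512 CPM), and Sst to cluster 7 (14290 CPM) and cluster 8 (9691 CPM), so no parvocellular cell is described by the side's mean.

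A list of other neuropeptides also held secreted proteins of other kinds, such as Cbln1, Cbln2 and Bdnf. Of its 27 genes, 14 passed the filter on low counts. Among these, 3 were higher (21.4%) and 6 lower (42.9%), beside 7.53% and 6.51% of all tested genes. The lower genes were Penk, Cartpt, Cbln1, Cbln2, Vgf and Bdnf, of which Vgf is counted again among the granins. The higher genes were Pdyn, the precursor of dynorphin (log2 difference 1.21 ± 0.27, adjusted p = 0.00613), Gal, the precursor of galanin (1.08 ± 0.20, adjusted p = 0.00156), and Nucb2 (0.74). Pdyn and Gal were each higher on 9 of 10 plates, and their plate values overlapped. The difference of Pdyn was 0.05 in cluster 1 (adjusted p = 0.948) and 2.32 in clusters 2 to 4 (adjusted p = 1.31e-06), and on AL and JM plates alone it was 0.67 and did not pass (adjusted p = 0.0754). Penk, the precursor of enkephalin, was at 0, 0.387 and 20.4 CPM in magnocellular and 79.3, 287 and 1333 CPM in parvocellular neurons (−7.89 ± 0.60, adjusted p = 7.27e-06). Bdnf, a neurotrophin, was at 0, 0.636 and 18.7 CPM against 141, 324 and 683 CPM (−7.86, SE 0.76, adjusted p = 6.42e-05). Neither gene's sides overlapped. Without plate JM5 the difference of Penk was −8.59, and without JM6 that of Bdnf was −8.67. Penk was led by cluster 14 (mean 1274 CPM) and Bdnf by cluster 9 (2555 CPM). Cbln2, a synaptic organiser, had 6 UMIs over all magnocellular cells and 3387 over all parvocellular cells.

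In the groups for the steps that a secreted precursor passes through in the ER, called members were mostly higher, as they also were for ribosomal proteins, given further on. Gene lists, here and in the other paragraphs, were chosen with earlier results of these data known. The share of a list therefore describes its members and is not a test. In the group for ER folding and disulfide formation, 18 of 27 genes rose in magnocellular neurons and 0 fell, beside 7.53% and 6.51% of all tested genes, with a median log2 difference of 0.77 beside 0.02 over all genes. Hspa5, encoding the chaperone BiP, was at 543, 878 and 1218 CPM in magnocellular and 358, 570 and 689 CPM in parvocellular neurons. Its values were higher on 10 of 10 plates although the ranges overlapped, and the log2 difference was 0.79 ± 0.06 (adjusted p = 1.74e-07). The difference was 0.73 on Q plates and 0.82 on AL and JM plates, and 0.56 in cluster 1 and 1.15 in clusters 2 to 4. The highest parvocellular cluster mean of Hspa5, 1117 CPM, lay above the lowest magnocellular one, 774 CPM. Sdf2l1, a partner of ER chaperones, was at 91.5, 135 and 167 CPM against 22.5, 54.6 and 76.4 CPM, with no overlap, and all 4 magnocellular clusters lay above all 8 parvocellular clusters (log2 difference 1.57 ± 0.19, adjusted p = 2.41e-05). Dnajb9, a cochaperone of BiP, rose by 1.49 ± 0.13. Pdia5, a protein disulfide isomerase, rose by 2.45 at low levels, with means of 16.9 and 4.17 CPM. It passed neither with cluster 1 alone (adjusted p = 0.0662) nor with clusters 2 to 4 alone (adjusted p = 0.0712). Canx, the lectin chaperone calnexin, named after its values were seen, was at 628, 700 and 962 CPM against 386, 468 and 535 CPM, again with no overlap (0.86 ± 0.06, adjusted p = 1.53e-07).

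The step before folding showed the same direction. Of 22 tested genes for ER translocation and signal peptide processing, 12 rose (54.5%, beside 7.53% of all tested genes) and 1 fell (4.55%, beside 6.51%), with a median log2 difference of 0.43. Sec11c, a subunit of the signal peptidase, was at 758, 883 and 1071 CPM in magnocellular and 369, 497 and 701 CPM in parvocellular neurons, with no overlap (0.98 ± 0.06, adjusted p = 2.52e-08). Sec61a1, the channel of the translocon, rose by 1.07 and Ssr4, of the translocon-associated complex, by 0.84. Of 21 tested genes for the unfolded protein response and ER-associated degradation, 9 rose (42.9%) and 0 fell, with a median of 0.67. Derl3, a factor of ER-associated degradation, rose by 3.77 at low levels, with means of 7.30 and 1.24 CPM, and had no tested value with clusters 2 to 4 alone. Creb3l2, a transcription factor held in the ER membrane, rose by 2.42 ± 0.47 (adjusted p = 0.00156). Creb3l1, its relative, had a log2 difference of 1.62 that did not pass (adjusted p = 0.123), but it passed with clusters 2 to 4 alone (2.54, adjusted p = 0.0308) and on AL and JM plates alone (2.39, adjusted p = 0.0486).

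In transport from the ER through the Golgi, 10 of 31 tested genes rose (32.3%) and 0 fell, beside 7.53% and 6.51% of all tested genes. The median log2 difference was 0.36, beside 0.02 over all genes. Sec23b, a subunit of the COPII coat, rose by 1.31, and the cargo receptors Tmed3 and Lman2 by 1.23 and 0.86. Tmed3 was at 555, 784 and 1256 CPM in magnocellular and 211, 407 and 754 CPM in parvocellular neurons, higher on 10 of 10 plates. Of the 27 genes of the folding group, 24 had a window in the table and 8 of these (33.3%) held the ER stress element printed above for Hspa5, beside 0.137% of all windows. These were Hspa5, Calr, Hsp90b1, Canx, Pdia6, Ero1lb, Dnajc3 and Creld2, of which Calr, Ero1lb and Creld2 were not called. In the group for the unfolded protein response, 2 of 19 windows (10.5%) held it, those of Derl3, which was higher, and Syvn1, which was not called. A match says only that these letters occur in the window.

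**Figure D3:**
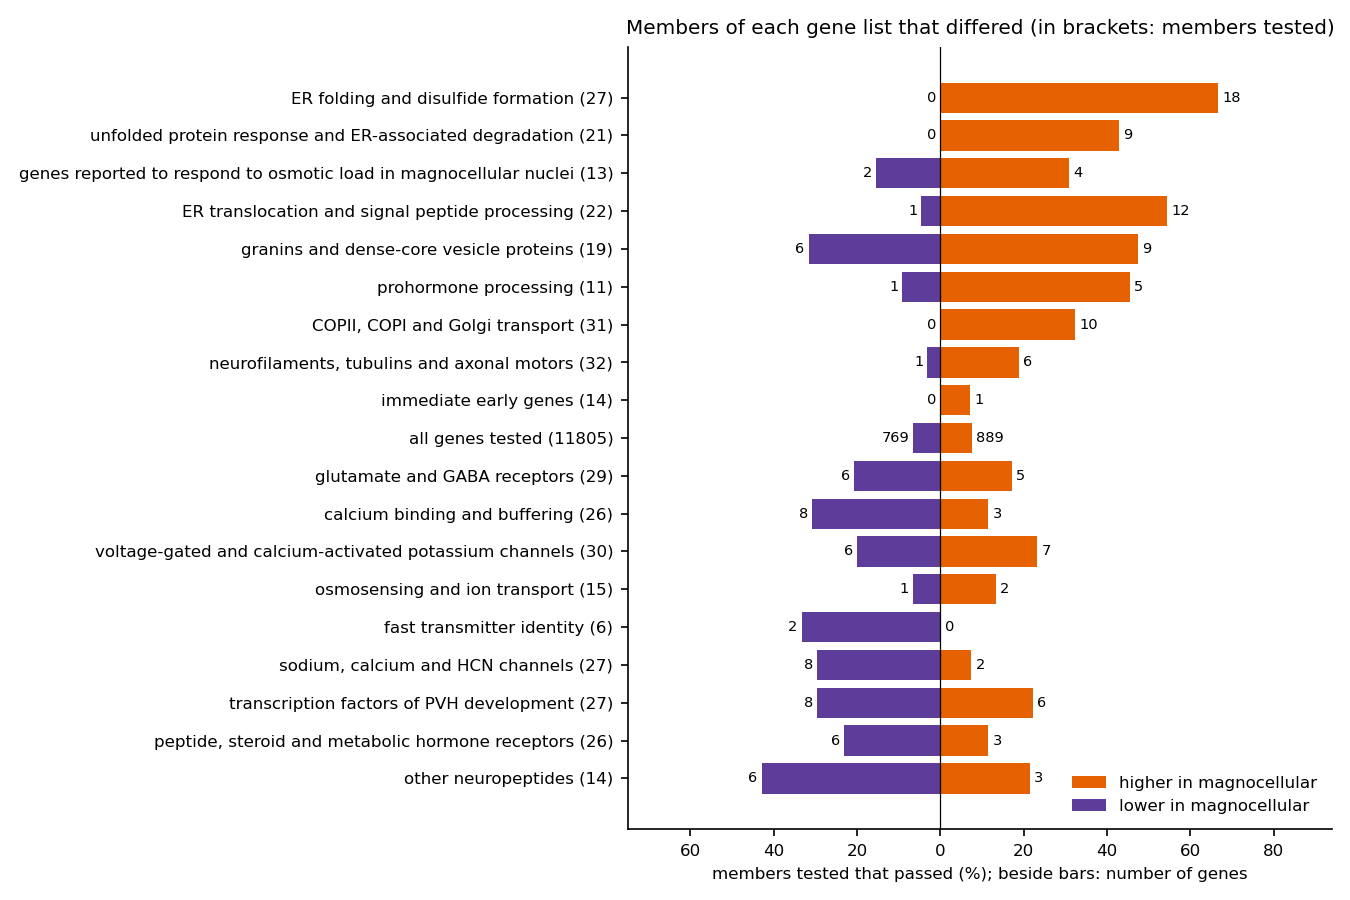
Percent of the tested genes of each gene group that were higher (right) or lower (left) in magnocellular neurons, with the number of genes beside each bar and the number tested in brackets. The ER and Golgi groups hold many higher genes and at most 1 lower one, whereas channels, calcium genes and transcription factors hold both.

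A pair of other large groups gives a scale for this. Of 84 tested genes for cytosolic ribosomal proteins, 68 rose (81%) and 0 fell, with a median log2 difference of 0.37. Of 79 nuclear genes for mitochondrial oxidative phosphorylation, 7 rose (8.86%, beside 7.53% of all tested genes) and 0 fell (beside 6.51%), with a median of 0.06. Total RNA per cell and its mitochondrial share moved with the sides as given above, and their part in these counts was not tested.

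Of 11 tested genes for prohormone processing, 5 rose (45.5%) and 1 fell (9.09%), beside 7.53% and 6.51% of all tested genes. Pcsk1, the prohormone convertase PC1/3, was at 191, 220 and 276 CPM in magnocellular and 16.6, 67.0 and 116 CPM in parvocellular neurons, with no overlap (log2 difference 1.94 ± 0.23, adjusted p = 1.70e-05). It was as large in the oxytocin cluster (1.93) as in the vasopressin clusters (1.85), and close on Q plates (1.97) and AL and JM plates (1.91). Its means were 224 to 246 CPM in the magnocellular clusters, but 1 parvocellular cluster, cluster 13, reached 254 CPM. Pam, the enzyme that amidates peptides such as both nonapeptides, was at 394, 650 and 856 CPM against 205, 335 and 540 CPM, higher on 10 of 10 plates with overlapping ranges (1.09 ± 0.11, adjusted p = 3.72e-06). Its difference was 1.40 in cluster 1 and 0.04 in clusters 2 to 4. Pcsk2, the convertase PC2, was lower by 0.51 on the log2 scale on balance (log2 difference −0.51 ± 0.15, adjusted p = 0.0301), on 8 of 10 plates. That call was lost without plate Q5, AL5, AL6 or JM5, and the difference was −1.69 in cluster 1 but 0.58 in clusters 2 to 4.

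The proteins of the dense-core vesicle itself were split. Of 19 tested genes for granins and dense-core vesicle proteins, 9 rose (47.4%) and 6 fell (31.6%), beside 7.53% and 6.51% of all tested genes. Scg2, encoding secretogranin II, was at 118, 218 and 398 CPM in magnocellular and 2320, 4519 and 9057 CPM in parvocellular neurons. The lowest parvocellular plate exceeded the highest magnocellular plate, and the log2 difference was −4.37 ± 0.22 (adjusted p = 2.44e-07). Every cluster followed the split, at 113 to 600 CPM in the magnocellular and 2140 to 9076 CPM in the parvocellular clusters. The difference was −4.87 on Q plates and −4.02 on AL and JM plates. Vgf, another granin-like precursor, fell by 1.81 on the log2 scale (adjusted p = 0.0173), lower on 8 of 10 plates. By contrast Rab3d, a GTPase of secretory vesicles, rose by 1.65, Syt7, a calcium sensor of exocytosis, by 1.36 and Cadps2, a priming factor, by 1.32. In cluster 1 alone these differences were 1.80, 1.63 and 1.61 and passed, and in clusters 2 to 4 alone they were 1.09, 0.42 and 0.47 and did not (adjusted p = 0.238, 0.629 and 0.600). Chgb, chosen after its values were seen, had a log2 difference of 0.02 ± 0.08 (adjusted p = 0.92).

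Among genes listed for the response of these neurons to osmotic load, 4 of 13 rose (30.8%) and 2 fell (15.4%), beside 7.53% and 6.51% of all tested genes. Th, tyrosine hydroxylase, was at 112, 215 and 433 CPM in magnocellular and 17.4, 29.2 and 176 CPM in parvocellular neurons, higher on 10 of 10 plates (log2 difference 2.67 ± 0.28, adjusted p = 5.05e-06). Caprin2, an RNA-binding protein known to bind vasopressin mRNA, was at 99.7, 176 and 312 CPM against 21.9, 48.8 and 55.4 CPM, with no overlap (2.30 ± 0.19, adjusted p = 4.27e-07). It rose in both magnocellular parts, by 2.03 in cluster 1 and 2.74 in clusters 2 to 4. Of 15 tested genes listed for osmosensing and ion transport, 2 rose (13.3%) and 1 fell (6.67%), beside 7.53% and 6.51% of all tested genes. Slc8a3, a sodium-calcium exchanger, rose by 1.23 and Atp1b1, a subunit of the sodium pump, by 0.25, while Scn2a1, a sodium channel gene, fell by 0.53 on the log2 scale. Trpv1 had 0 UMIs in magnocellular cells (3 counts of the total would be 0.0405 CPM) and 138 in parvocellular cells.

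The channels that shape firing moved in both directions. Of 30 tested potassium channel genes, 7 rose (23.3%) and 6 fell (20%), beside 7.53% and 6.51% of all tested genes. Kcnmb4, the neuronal accessory subunit of the large-conductance calcium-activated channel, was at 63.6, 122 and 165 CPM in magnocellular and 20.9, 38.1 and 90.8 CPM in parvocellular neurons (log2 difference 1.60 ± 0.19, adjusted p = 2.07e-05), and was higher on 10 of 10 plates. Its means were 99.1 to 181 CPM in the magnocellular clusters, but the highest parvocellular cluster reached 177 CPM. Kcnd3 and Kcnd2, subunits of the A-type current, rose by 1.05 and 0.64, the latter with 0.29 in cluster 1 (adjusted p = 0.421) and 1.01 in clusters 2 to 4 (adjusted p = 0.00870). Kcna2, Kcnc2 and Kcnc1, subunits of delayed rectifiers, were lower, with log2 differences of −2.58, −1.48 and −1.10. Of 27 sodium, calcium and HCN channel genes, 2 rose (7.41%) and 8 fell (29.6%), so that the share higher was near that of all genes. The T-type calcium channel genes did not share a direction. Cacna1h was higher (1.25 ± 0.31, adjusted p = 0.0119, 9 of 10 plates), with 1.42 in cluster 1 (adjusted p = 0.00933) and 0.42 in clusters 2 to 4 (adjusted p = 0.771). Cacna1i had a log2 difference of −2.27 that did not pass (adjusted p = 0.112), while Cacna1g was at 0.705, 4.95 and 13.2 CPM against 16.2, 39.1 and 96.6 CPM, with no overlap (−2.77 ± 0.42, adjusted p = 0.000183).

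Of 29 tested genes for ionotropic and metabotropic receptors of glutamate and GABA, 5 rose (17.2%) and 6 fell (20.7%), beside 7.53% and 6.51% of all tested genes. Gabbr2, a subunit of the GABA-B receptor, was at 5.04 to 18.2 CPM in magnocellular and 19.1 to 64.1 CPM in parvocellular neurons, with no overlap of plates (log2 difference −1.88 ± 0.22, adjusted p = 1.59e-05). Grin2a, an NMDA receptor subunit, rose by 1.19 on the side as a whole, with 1.71 in cluster 1 and −5.54 in clusters 2 to 4. Of 53 receptor genes for peptides, steroids and other hormones, 26 passed the filter, of which 3 rose (11.5%) and 6 fell (23.1%). Oprk1, the kappa opioid receptor to which dynorphin binds, rose by 2.53 ± 0.31 (adjusted p = 2.38e-05), from cluster 1 (3.02) and not from clusters 2 to 4 (−0.79). Rxfp3, the receptor for relaxin-3, was at 31.3, 118 and 212 CPM against 0, 2.03 and 26.7 CPM with no overlap (5.16 ± 0.75, adjusted p = 0.000442). Npy1r, a receptor for neuropeptide Y, was at 0, 0 and 5.09 CPM against 10.2, 29.9 and 58.0 CPM, also with no overlap (−7.08 ± 0.92, adjusted p = 4.26e-05). Agtr1a, an angiotensin II receptor, and Calcr, the calcitonin receptor, were lower, with log2 differences of −6.55 and −6.33. Calcr stood at −7.12 without plate AL6, and Npy1r at −8.02 without JM6 and −7.92 without JM7. Nr3c1, the glucocorticoid receptor through which corticosterone acts back on Crh neurons, was at 0.176, 5.31 and 19.1 CPM against 10.2, 127 and 306 CPM (−4.83 ± 1.04, adjusted p = 0.0113), lower on 10 of 10 plates. All 4 magnocellular clusters (0.569 to 14.4 CPM) lay below all 8 parvocellular clusters (32.2 to 518 CPM). Its sides overlapped through plate AL6, at 8.40 against 10.2 CPM. Esr2 (log2 difference −0.96, adjusted p = 0.478) and Cnr1 (−1.05, adjusted p = 0.212) did not pass, but with clusters 2 to 4 alone Esr2 was lower (−3.92, adjusted p = 0.0201).

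**Figure D4:**
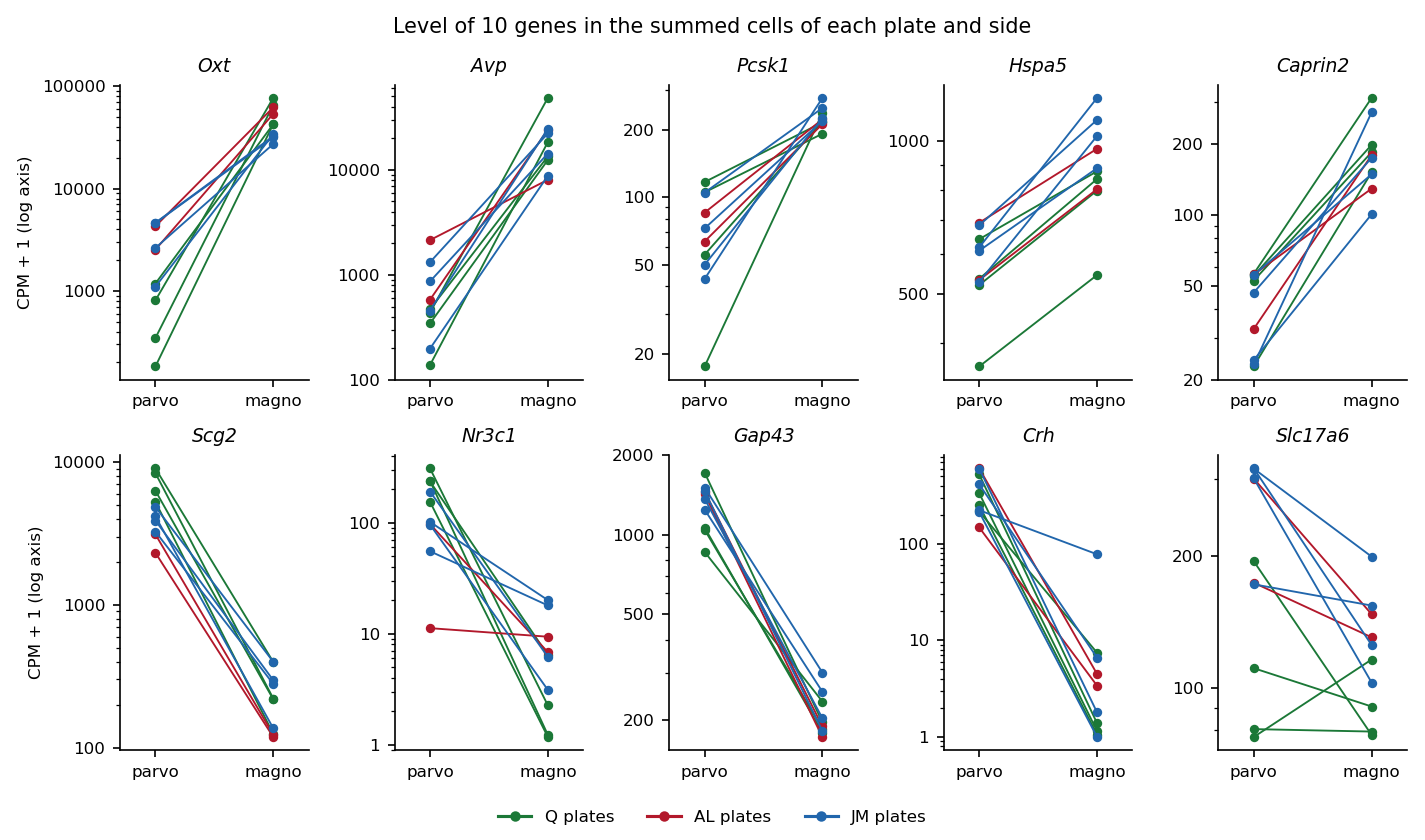
Level of named genes on each plate in magnocellular and parvocellular neurons, in CPM on a log scale, with 1 point per plate, coloured by batch, after adding 1 CPM. Oxt, Avp, Pcsk1 and Caprin2 are higher and Scg2 and Gap43 lower in magnocellular neurons with no overlap of plates, while the ranges of Hspa5 overlap although every plate is higher.

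The regulators that mark the whole PVH lineage differed little next to the hormones. Otp, needed for neuroendocrine neurons to form, was lower by 0.27 on the log2 scale (log2 difference −0.27 ± 0.07, adjusted p = 0.0160), on 10 of 10 plates. Sim1, which marks the PVH, was higher by 0.67 (adjusted p = 0.0103) on 8 of 10 plates, with 0.46 in cluster 1 (adjusted p = 0.152) and 1.01 in clusters 2 to 4. Pou3f2, required for magnocellular neurons and Crh neurons, was at 165, 228 and 373 CPM in magnocellular and 73.5, 119 and 190 CPM in parvocellular neurons (1.09 ± 0.13, adjusted p = 1.96e-05). Of 45 listed PVH transcription factors, 27 passed the filter, with 6 higher (22.2%) and 8 lower (29.6%), beside 7.53% and 6.51% of all tested genes. Foxp1 rose by 1.60, with 1.89 in cluster 1 and 0.37 in clusters 2 to 4 (adjusted p = 0.696). Zfhx4, Zic1 and Lhx5 were lower, with log2 differences of −5.35, −2.83 and −2.67.

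Fast transmitter genes gave fewer differences. Slc17a6, the vesicular glutamate transporter of most PVH neurons, had a log2 difference of −0.50 ± 0.18 that did not pass (adjusted p = 0.0781), although it passed without plate Q8 (−0.63, adjusted p = 0.0122). Gad2, an enzyme that makes GABA, was at 0, 0.922 and 15.5 CPM in magnocellular and 34.7, 60.9 and 132 CPM in parvocellular neurons, with no overlap (−4.96 ± 0.58, adjusted p = 1.45e-05), and its highest cluster mean was 411 CPM in cluster 13. Slc32a1, the vesicular GABA transporter, had 0 UMIs on both sides, which allows up to 0.0405 and 0.0664 CPM.

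Among genes for calcium binding and buffering, 3 of 26 rose (11.5%) and 8 fell (30.8%), beside 7.53% and 6.51% of all tested genes. Of the calcium pumps of the plasma membrane, Atp2b4 was higher and the other 3 were lower. Atp2b4 rose by 1.13, at 95.0 to 178 CPM in magnocellular and 45.6 to 94.6 CPM in parvocellular neurons, and Atp2b1 was at 59.3, 74.5 and 120 CPM against 250, 330 and 400 CPM (−1.92 ± 0.10, adjusted p = 2.69e-09). The sides overlapped for neither of these. Atp2b2 had a log2 difference of −0.83 (adjusted p = 0.000427) and Atp2b3, named after its values were seen, one of −2.37 (adjusted p = 0.000216). Of the ryanodine receptors, release channels of the ER, Ryr1 rose by 1.35, Ryr3 had a difference of −4.14, and Ryr2 had one of −1.96 (adjusted p = 0.0230) whose call was lost without plate Q7 or AL5 (adjusted p = 0.0622 and 0.0634). Calb1, calbindin, was higher on 10 of 10 plates by 1.29 on average but did not pass (adjusted p = 0.0758), although it passed without plate AL6 (1.02, adjusted p = 0.00981). Of 32 cytoskeleton and axon genes, 6 rose (18.8%) and 1 fell (3.12%). The exception was Gap43, a growth cone protein, at 170, 191 and 300 CPM against 860, 1395 and 1715 CPM (−2.53 ± 0.11, adjusted p = 3.83e-10). It followed every cluster, at 157 to 311 CPM in the magnocellular and 670 to 1748 CPM in the parvocellular clusters, and was as large in cluster 1 (−2.55) as in clusters 2 to 4 (−2.47).

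Outside the groups, genes were named that had at least 50 CPM on the higher side and the same direction on all 10 plates, among them the following. Cela1, an elastase-family protease, was at 29.7, 54.7 and 96.0 CPM in magnocellular and 0, 0.418 and 3.19 CPM in parvocellular neurons (log2 difference 6.07 ± 0.57, adjusted p = 1.67e-06). It was a gene of cluster 1, with a mean of 77.9 CPM there, and its means in clusters 2, 3 and 4 were 2.17, 1.68 and 7.29 CPM against up to 2.14 CPM in a parvocellular cluster. Plpp4, a phospholipid phosphatase, was at 114, 162 and 225 CPM against 0.428, 6.43 and 38.3 CPM (4.39 ± 0.45, adjusted p = 9.85e-06), with every magnocellular cluster above every parvocellular one. Vim, the intermediate filament vimentin, rose by 3.70, and Gpc3, a heparan sulfate proteoglycan of the cell surface, by 3.86. None of Cela1, Plpp4 and Vim overlapped between the sides. Reln, the secreted glycoprotein reelin, was at 0, 0.184 and 5.65 CPM against 15.5, 141 and 243 CPM (−7.32 ± 0.44, adjusted p = 1.38e-08). Sfrp2, a Wnt antagonist, and Ntng1, netrin-G1, were lower, with log2 differences of −7.22 and −6.55, which became −7.81 without plate JM5 and −7.18 without plate Q8. Unc13c and Mgat4c lay between them, at −6.75 and −6.70. Asb4 had 3 UMIs over all magnocellular and 2135 over all parvocellular cells.

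**Figure D5:**
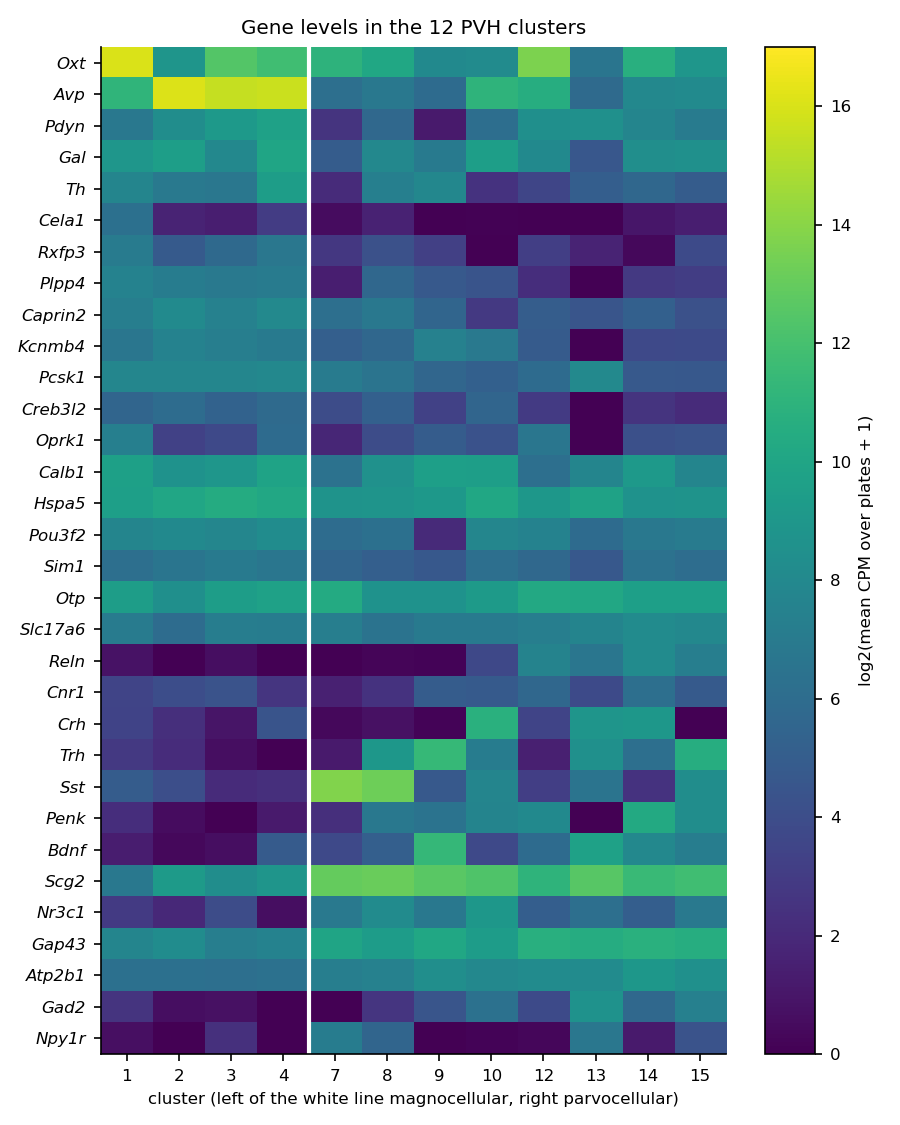
Mean level of named genes in each of the 12 PVH clusters, as log2(CPM + 1), with the 4 magnocellular clusters set apart from the 8 parvocellular ones. Scg2, Gap43 and Nr3c1 are lower in every magnocellular cluster than in every parvocellular cluster, whereas Oxt marks cluster 1 and cluster 12, and the hormones Crh, Trh and Sst each mark few parvocellular clusters.

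Of 14 tested immediate early genes, 1 rose (7.14%, beside 7.53% of all tested genes) and 0 fell, so the group's share was that of all genes. The gene was Fosl2 (2.57 ± 0.20, adjusted p = 1.82e-07), at 69.2, 148 and 333 CPM in magnocellular and 6.21, 31.6 and 78.9 CPM in parvocellular neurons. Markers of other cell types were low but not equal. The summed level of 22 glial and vascular markers was 98.6, 133 and 173 CPM in magnocellular and 60.8, 279 and 402 CPM in parvocellular neurons, of which Mbp and Aldoc alone made up 96.8, 128 and 164 CPM and 60.3, 270 and 396 CPM. The other 20 summed to 0.0687, 4.63 and 22.3 CPM in magnocellular and 0.464, 7.73 and 134 CPM in parvocellular neurons, so that they were not near 0 on every parvocellular plate. On each side 8 of the 22 had no UMI. On the magnocellular side these were Olig2, Mog, C1qa, Cx3cr1, P2ry12, Cldn5, Flt1 and Ccdc153, and on the parvocellular side Gfap and Cspg4 took the place of Olig2 and Flt1. The 6 arcuate and GABAergic markers summed to 5.19, 34.1 and 58.3 CPM against 37.1, 98.4 and 136 CPM, with 39 and 71 UMIs of Agrp over all cells. The part of these cells in the results was not tested.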

How the data were processed

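The deposited tables hold raw UMI counts per gene (48397 genes) and per ERCC spike-in (92) for 960 wells on 10 plates, made by the authors from Smart-SCRB libraries. The labels name Trimmomatic 0.36, STAR 2.5.3a and build GRCm38.p5. The counter, annotation and UMI correction are not given in the sources used here. The labels and the methods differ on the sequencer and library kit. Cluster numbers and plates came from the authors' table of cells kept after quality control, and how doublets were treated is not given in the sources used here, so no caller was run. The list of well barcodes was not used.

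Counts were summed per plate and side (at least 3 cells) and tested with edgeR 4.0.16 in R 4.3.3 (TMM scaling, filterByExpr, quasi-likelihood test, plate as block, Benjamini-Hochberg adjustment, threshold 0.05). The block is the plate, since both sides of a pair come from the same plate. Levels are CPM of each sum, without TMM scaling, and plate directions and overlaps were read from them. Log2 differences come from the edgeR fit. Their SE was derived as the absolute log2 difference divided by the square root of the F statistic of the quasi-likelihood test. Counts carry sampling error, and the sums above set the precision of low genes. P-values of the paired tests measure how the difference between the sides varies over plates. Measures per cell were plate medians compared with exact two-sided sign-flip permutation tests (Python 3.11.15, numpy 2.4.6, pandas 2.3.3, scipy 1.17.1). Figures were drawn with matplotlib 3.10.9. The fits were tested on simulated data.

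Named genes were the 12 largest changes in each direction with the same sign on every plate and at least 50 CPM on the higher side, up to 3 called members per gene list and direction, and a set of genes of known interest. Others are stated as chosen after their values were seen, and a few genes that meet the rule are not reported here. Members and lists were chosen with earlier results of these data known. Promoters came from RefSeq tables (GRCm38.p6). Alternatives were DESeq2 1.42.0, RLE scaling, Oxt and Avp left out, no filter, no plate block, each plate left out, Q or AL and JM plates alone, cluster 12 left out or moved, cluster 1 or clusters 2 to 4 alone, cells thinned to equal depth, and a minimum of 5 cells.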

Additional observations from a re-analysis of the deposited data

Results flagged for a closer look

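The contrast between the sides differed between Q plates and AL and JM plates in 4 of the 5 measures per cell, by an exact permutation test over plates. The log2 differences on Q and on AL and JM plates were 0.94 and 0.34 for total UMIs, 0.98 and 0.35 for gene UMIs per ERCC UMI, 0.40 and 0.11 for genes detected, and 0.27 and 0.0274 for genes detected at equal depth, with an adjusted p of 0.0357 for each. A fit added after seeing the data let the contrast between the sides differ between Q plates and the pooled AL and JM plates. In it 11 genes passed for a difference in that contrast, 0 of them among the named genes. All 11 had the larger magnocellular minus parvocellular difference on Q plates. Among these, Mrps26, whose log2 difference was 2.22 on Q and 1.34 on AL and JM plates, was called in both, Nefm had 2.08 and 0.11, and Snap25 had 0.63 and −0.30. Batch and cluster makeup cannot be told apart here.

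In 10 of 113 values checked, 1 plate lay far from the other 9 by Dixon's test, which chance gives in about 1 of 20. Values are differences of log2(CPM + 1), magnocellular minus parvocellular. Higher than the rest were Nnmt on AL6 (6.54, others 0.991 to 3.42), Fezf2 on AL6 (4.80, others −0.594 to 2.05), Sec23b on Q7 (2.80, others 0.568 to 1.55) and Lman2 on Q6 (2.31, others −0.170 to 0.965). Sst on AL6 was 0.57 (others −8.97 to −4.51), Crh on JM5 was −1.52 (others −8.56 to −4.86), and Bdnf on JM6 was −3.31 (others −8.80 to −6.10). Ryr3 on Q5 was 1.40 (others −4.23 to −1.52), Cacnb2 on AL5 was 1.06 (others −3.16 to −1.14) and Sec62 on Q6 was 0.0241 (others −0.520 to −0.273). AL6 held the fewest parvocellular cells, 19.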

How the results depend on the processing

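Values are log2 differences unless stated. Without the replicate block, that is with plates unpaired, total UMIs differed by 0.58 (adjusted p = 0.176), gene UMIs per ERCC UMI by 0.60 (0.135), genes at equal depth by 0.12 (0.223) and the mitochondrial share by −0.31 points (0.176), none past the threshold, and 412 genes were higher and 474 lower. On Q plates alone, where the exact permutation test cannot pass, the 5 measures were 0.94, 0.98, 0.40, 0.27 and −0.52 points, with 158 higher and 145 lower genes. On AL and JM plates they were 0.34, 0.35, 0.11, 0.0274 and −0.16 points, none past the threshold. With clusters 2 to 4 alone, genes detected (0.10) and genes at equal depth (0.0593) did not pass, and 499 genes were higher. The mitochondrial share did not pass as a mean over cells (−0.19 points), without cluster 12 (−0.27) or with cluster 1 alone (−0.0175). Leaving out 1 plate gave 0.51 to 0.64 for total UMIs, 0.53 to 0.68 per ERCC UMI, 0.20 to 0.255 for genes detected, 0.10 to 0.15 at equal depth and −0.37 to −0.27 points for the mitochondrial share, with 758 to 854 higher and 619 to 765 lower genes. DESeq2 called 1254 higher and 1320 lower genes. Directions turned for Avp with cluster 1 alone (−0.34), for Oxt (−0.67), Pcsk2 (0.58), Grin2a (−5.54) and Oprk1 (−0.79) with clusters 2 to 4 alone, and, of genes that were not called, for Cnr1 on Q plates (0.0754) and Esr2 on Q plates (0.55) and with cluster 12 moved to the magnocellular side (0.65). Of 106 named genes that were called, 95 kept the call whichever plate was left out, 106 did with DESeq2, 84 without the block and 100 without cluster 12. Depth limits genes near 0 on a side, whose fold depends on few UMIs.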
